A study of Mus musculus with 8 samples.

Results

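The mitochondrial respiratory chain passes electrons from fuel to oxygen, and ATP synthase uses the proton gradient it builds. Complex II (succinate dehydrogenase) takes electrons from the citric acid cycle, complex III passes them to cytochrome c, complex IV (cytochrome c oxidase) hands them to oxygen, and complex V is ATP synthase. In brown fat the uncoupling protein UCP1 lets protons bypass ATP synthase so that the energy leaves as heat, and rodent brown fat is known for holding little ATP synthase relative to its respiratory chain. Most subunits of these complexes are encoded in the nucleus, and the transcription factors NRF1, GABP and ERR are known activators of such genes. Described here are the nuclear genes for complexes II to V and cytochrome c, 57 of the 54532 genes in the table. They were chosen by symbol (Sdha to Sdhd stems, Uqc, Atp5, Cox followed by a digit, Cyc1 and Cycs) with at least 80 counts summed over the 8 libraries. Pseudogenes with the suffix -ps and 8 cytochrome oxidase isoform genes such as Cox4i1 and Cox8b were left out. Of the 57, 8 belong to complex II, 12 to complex III, 1 is cytochrome c, 19 belong to complex IV and 17 to complex V. By class, 37 encode subunits or cytochrome c and 18 encode assembly factors, while Cox6c2 and Cox20b are annotated as processed pseudogenes. The least abundant row kept, Cox20b, had 99 counts and the most abundant row dropped for its count, Cox7b2, had 3. All 57 passed the filter on low counts and were tested.

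RNA was sequenced from interscapular brown adipose tissue of 8 male mice aged 7 months. All 8 carried the floxed Pparg gene, ate normal chow and spent 24 h at 4 °C before dissection. The 4 mice of the second group also carried Myl1-Cre, a recombinase driven by the Myl1 gene, and the 4 controls did not. Fat cells need the nuclear receptor PPARG to form, and the design asks what the fat cells derived from Myl1-positive progenitors add to the tissue. Myl1 is also a fast skeletal muscle gene, and the labels do not say which cells of the tissue recombined.

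Values are CPM (counts scaled by TMM library size), and fold changes are log2 of the labelled knockout over the control with the standard error (SE) from edgeR's quasi-likelihood test, whose p-values were adjusted over the 13756 genes tested with a threshold of 0.05. The libraries held 12226608 to 19268945 counts. Pparg stood at 201, 200, 186 and 202 CPM in controls 1 to 4 and at 279, 267, 269 and 320 CPM in the libraries labelled knockout 1 to 4. The targeted gene's RNA was thus higher in that group (log2 fold change 0.52 ± 0.09, edgeR adjusted p of 0.0328), against the direction of the label. The groups did not overlap, but the adjusted edgeR p was 0.0505 to 0.119 with any 1 library left out and 0.0515 with a skeletal muscle score in the model, where the log2 fold change stayed between 0.46 and 0.60. Reads from exons that are not floxed and from cells without Cre enter this value, so it is a limited check, and the name libraries labelled knockout is kept for these 4. In bulk tissue, fewer cells of a type and less RNA per cell cannot be told apart.

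No respiratory complex gene passed the edgeR threshold between the genotypes, while DESeq2 called 4. Most differences were small, with Atp5g1 the largest at a log2 fold change of 0.97. The edgeR test called 0 of the 57, with a lowest adjusted p of 0.0909 for Cox14, where it called 0.385% of all genes tested. At an unadjusted edgeR p under 0.05, 7 were higher (12.3%, against 8.05% of all genes) and 2 lower (3.51%, against 7.12%). limma-voom called 0 at the adjusted threshold (against 0.385% of all genes) and 9 at an unadjusted p under 0.05 (15.8%, against 15.2% of all genes). Atp5g1 was called in edgeR, higher, without the filter on low counts (1 of 57, against 0.484% of genes called higher) and with the mouse number as a block (1 of 57, against 0.792%). DESeq2 called 4, all of them higher (7.02%, against 1.39% of the genes it tested): Atp5g1, Atp5g3 and Atp5j of ATP synthase and the complex IV assembly factor Cox14. Log2 fold changes lay between -0.37 for Cox15 and 0.97 for Atp5g1, with a median of 0.08, while the median over all genes was 0.00. Above 0 lay 41 of the 57, or 71.9%, where 50.3% of all genes did. With a skeletal muscle score as a covariate the median was 0.16 and 43 lay above 0, where 47.4% of all genes did. All 4 libraries labelled knockout lay above all 4 controls for 5 genes (8.77%, against 4.10% of all genes) and below them for 3 (5.26%, against 4.00%).

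**Figure D1:**
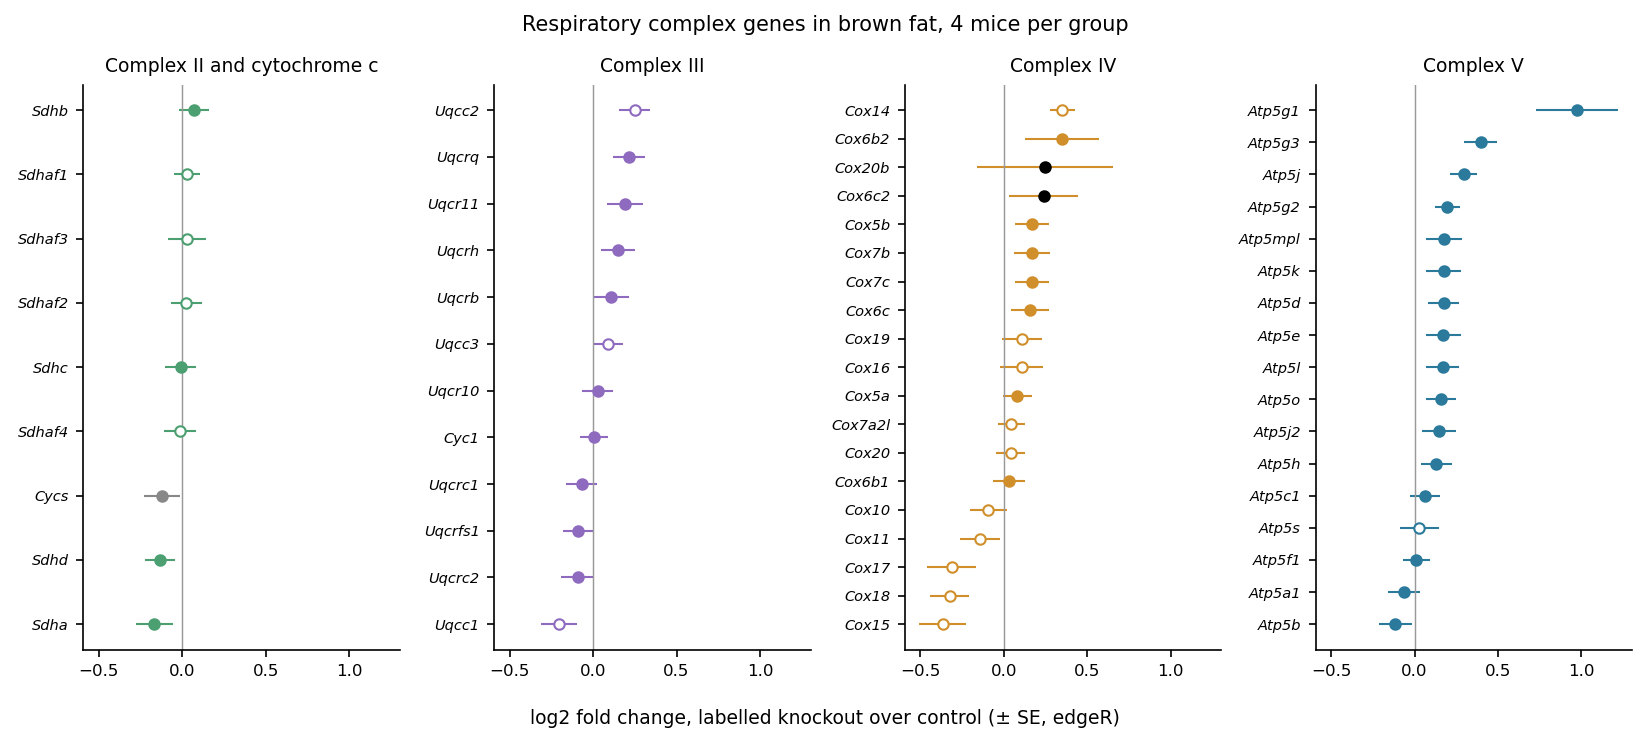
Log2 fold change of each gene, labelled knockout over control, with its SE (horizontal axis), in panels by complex. Filled points are subunits or cytochrome c, open points assembly factors and black points processed pseudogenes. ATP synthase subunits lie mostly above 0 (14 of 16), with Atp5g1 at 0.97, while complex IV assembly factors spread from -0.37 to 0.35.

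Levels differed far more between genes than between genotypes. Scaled by the length of the principal transcript, subunit mRNAs had median levels of 634 CPM per kilobase in complex II, 1090 in complex III, 1315 in complex IV and 795 in complex V, averaged over the 8 libraries. On the same scale the assembly factors had medians of 16.2 for complex II, 84.2 for complex III and 29.6 for complex IV. On this scale the highest level was that of Atp5b, the catalytic beta subunit of ATP synthase, at 2946 CPM per kilobase. Among the subunits Cox6b2, known as a testis isoform, was lowest at 5.83. With the length of all annotated exons in place of the principal transcript, Atp5b stayed highest in complex V, but the top genes became Sdhd in complex II, Uqcr10 in complex III and Cox6b1 in complex IV, and Cox6b1, at 1449 CPM per kilobase, lay above Atp5b, at 1332. The subunit medians were then 446 in complex II, 666 in complex III, 546 in complex IV and 266 in complex V, so the order of the complexes depends on the length used. The coefficient of variation among 4 mice had a median of 7.68% in the control and 8.23% in the libraries labelled knockout. Atp5g1 varied more than every other gene of the set in the control, at 35.4%.

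**Figure D2:**
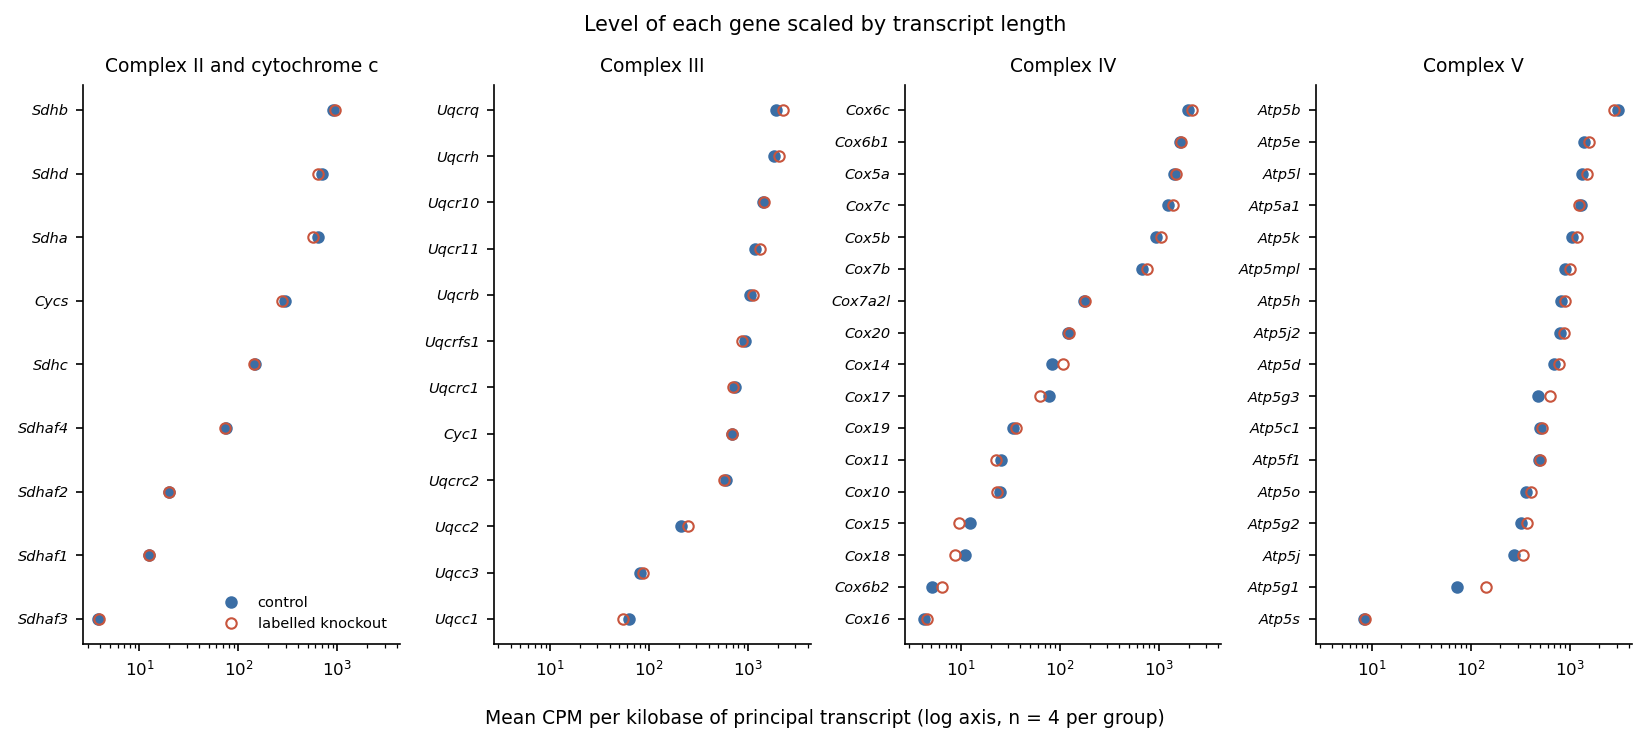
Mean CPM per kilobase of principal transcript (log axis, n = 4 per group) for each protein-coding gene, by complex. Filled points are the control and open points the libraries labelled knockout. The points of a gene nearly coincide except for a few such as Atp5g1, at 73.3 and 144, and most subunits lie above the assembly factors. Exceptions are the subunits Cox6b2 at 5.83, Atp5g1 at 109 and Sdhc at 145, which lie below the assembly factors Cox7a2l at 178 and Uqcc2 at 228.

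Complex II has 4 subunits, and none differed between the genotypes beyond the test's threshold. Sdha, the flavoprotein that oxidises succinate (chromosome 13, 74322254 to 74350280), was at 1961, 1764, 1623 and 1990 CPM in the controls and 1405, 1678, 1725 and 1725 CPM in the libraries labelled knockout. The groups overlapped, since control 3 lay below 3 libraries of the other group. Its log2 fold change was -0.17 ± 0.11 with an adjusted edgeR p of 0.499, the lowest value of the complex. Sdhb, the iron-sulfur subunit (chromosome 4, 140961203 to 140979193), had the highest level per kilobase and the highest fold change of the complex. It was at 1012, 1019, 1106 and 985 CPM in the controls and 1027, 1063, 1107 and 1131 CPM in the libraries labelled knockout, a log2 fold change of 0.07 ± 0.09 with overlapping groups. Neither catalytic subunit passed the test, although the Sdha means, 1834 and 1633 CPM, lay further apart than the SD of 173 or 154 CPM (n = 4 each). Of the membrane anchors, Sdhc had a log2 fold change of -0.01 ± 0.09 and Sdhd of -0.13 ± 0.09. The Sdhd groups just failed to overlap, with 829.6 CPM in the lowest control and 829.1 CPM in the highest library labelled knockout. The assembly factors Sdhaf1 to Sdhaf4 lay between -0.02 and 0.03, at mean control levels from 16.4 CPM for Sdhaf3 to 58.9 CPM for Sdhaf2. Sdhaf2 attaches the flavin cofactor to Sdha.

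In complex III the large core subunits lay slightly below 0 and several small subunits above it, and none of the 12 genes passed. Uqcrc1 and Uqcrc2, the core proteins, had log2 fold changes of -0.07 ± 0.09 and -0.09 ± 0.10, and Uqcrfs1, the Rieske iron-sulfur protein, of -0.09 ± 0.09. Cyc1, the cytochrome c1 haem protein, had nearly equal means, with 1046 ± 6.27 CPM (SD, n = 4) in the control and 1050 ± 52.8 CPM (SD, n = 4) in the other group. These are the subunits that carry or frame the redox centres of the nuclear-encoded part. The small subunits Uqcrq, Uqcr11, Uqcrh, Uqcrb and Uqcr10 had log2 fold changes of 0.22, 0.19, 0.15, 0.11 and 0.03. Uqcrq (chromosome 11, 53427922 to 53430831), the most abundant per kilobase, was at 841, 719, 821 and 751 CPM in the controls and 955, 830, 878 and 974 CPM in the libraries labelled knockout. Control 1 lay above library 2 labelled knockout, so the groups overlapped, and its adjusted edgeR p was 0.329.

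The assembly factors of complex III went to both sides. Uqcc2 (chromosome 17, 27122663 to 27133916) and Uqcc1 (chromosome 2, 155846894 to 155930310) act together in the synthesis of cytochrome b. Uqcc2 was at 106, 97.3, 105 and 109 CPM in the controls and 135, 112, 112 and 136 CPM in the libraries labelled knockout, with no overlap. Uqcc1 was at 181, 168, 139 and 169 CPM in the controls and 123, 142, 155 and 151 CPM in the libraries labelled knockout, where control 3 reached into the other group. Their log2 fold changes were 0.25 ± 0.09 and -0.20 ± 0.11, with adjusted edgeR p of 0.255 and 0.391. Uqcc3 was at 0.09 ± 0.09.

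Cytochrome c, the mobile carrier between complexes III and IV, is encoded in somatic cells by Cycs (chromosome 6, 50562563 to 50566538). Its level was 1001, 840, 931 and 963 CPM in the controls and 799, 759, 902 and 970 CPM in the libraries labelled knockout. Library 4 of the latter lay at the upper end of the control range while libraries 1 and 2 lay below every control. The log2 fold change was -0.12 ± 0.11 with an adjusted edgeR p of 0.624, and it was 0.03 with a skeletal muscle score as a covariate.

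The 7 complex IV subunit genes all had log2 fold changes above 0, from 0.03 for Cox6b1 to 0.35 for the sparse Cox6b2, and none passed. Cox5b, Cox7b, Cox7c and Cox6c lay between 0.16 and 0.17, and Cox5a at 0.08 ± 0.09. Cox6c (chromosome 15, 35925886 to 35938246) was the most abundant per kilobase, at 1043, 860, 1099 and 949 CPM in the controls and 1146, 962, 1083 and 1215 CPM in the libraries labelled knockout. Its groups overlapped, and its adjusted edgeR p was 0.535. Cox6c shares sequence with processed copies such as Cox6c2, which had 5.56 CPM in the control and 6.54 CPM in the other group, so reads may be split between them. Cox20b, a copy of Cox20, was at 0.755 and 0.885 CPM. Cox7a2l, which joins complexes III and IV into supercomplexes, stood at 188 ± 9.69 CPM (SD, n = 4) in the control and 194 ± 9.20 CPM (SD, n = 4) in the libraries labelled knockout.

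The 9 genes for complex IV assembly factors named Cox10 to Cox20 held both the lowest values of the set and one of its highest. Cox14 (ENSMUSG00000023020, chromosome 15, 99725618 to 99728136), a small inner-membrane protein that supports the synthesis and early assembly of the COX1 subunit, was at 57.5, 63.3, 62.2 and 59.7 CPM in the controls and 75.4, 74.7, 81.3 and 78.0 CPM in the libraries labelled knockout. The lowest library of the second group exceeded the highest control by more than the range within either group. Its log2 fold change was 0.35 ± 0.07 with an adjusted p of 0.0909 in edgeR, 0.0893 in limma-voom and 0.00788 in DESeq2. The value lay between 0.31 and 0.37 under the alternatives tried, with an adjusted edgeR p of 0.368 in the fit with the skeletal muscle score.

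Cox15 and Cox10 make the haem A cofactor of complex IV. Cox15 (chromosome 19, 43733254 to 43753000) was at 66.9, 59.2, 43.8 and 68.1 CPM in the controls and 39.6, 51.3, 43.3 and 50.3 CPM in the libraries labelled knockout. Control 3 lay within the range of the other group. The log2 fold change was -0.37 ± 0.14 with an adjusted edgeR p of 0.263, and it was -0.49 without control 3. Cox10 was at -0.09 ± 0.11. Cox18, which inserts the tail of COX2 into the membrane, was at 14.6 ± 1.42 CPM (SD, n = 4) in the control. In the libraries labelled knockout it was at 11.6 ± 0.956 CPM (SD, n = 4), with an adjusted edgeR p of 0.241. All 4 of these lay below every control, but only just, with 12.48 CPM in control 2 and 12.44 CPM in library 4 labelled knockout. The copper chaperones Cox17 and Cox11 had log2 fold changes of -0.31 ± 0.15 and -0.15 ± 0.12, and Cox11 was at -0.04 without control 4. Cox19, Cox16 and Cox20 lay between 0.04 and 0.11. Exons of Cox15, Cox10, Cox11 and Cox20 overlap a gene on the opposite strand and those of Cox16 and Cox17 a gene on the same strand, so these counts are uncertain.

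ATP synthase was the complex with the highest median, at 0.17 over 17 genes, of which 15 lay above 0 and none passed in edgeR. The catalytic head did not share this. Atp5b (chromosome 10, 128083273 to 128090391) was at 5884, 5811, 5744 and 6041 CPM in the controls and 4939, 5606, 5637 and 5496 CPM in the libraries labelled knockout. These groups did not overlap, and the log2 fold change was -0.12 ± 0.10 with an adjusted edgeR p of 0.619. Atp5a1, the alpha subunit, was at -0.07 ± 0.10, and Atp5c1, the gamma subunit of the rotating shaft, at 0.06 ± 0.09. Atp5d and Atp5e, the delta and epsilon subunits of the same shaft, both stood at 0.17.

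The stalk and membrane subunits lay mostly higher. In the peripheral stalk, Atp5f1 (subunit b) was at 0.01 ± 0.08, Atp5h (subunit d) at 0.13 ± 0.09 and Atp5o (the oligomycin sensitivity protein) at 0.16 ± 0.09. Atp5j (chromosome 16, 84827866 to 84835625), a peripheral stalk subunit, was at 222, 219, 229 and 222 CPM in the controls and 288, 254, 277 and 276 CPM in the libraries labelled knockout, with no overlap. Its log2 fold change was 0.29 ± 0.08, with an adjusted p of 0.147 in edgeR and 0.0103 in DESeq2. Exons of Atp5j overlap those of Gabpa on the opposite strand, which makes its count uncertain. The small membrane subunits Atp5j2, Atp5k, Atp5l and Atp5mpl lay between 0.15 and 0.18, and Atp5s, which encodes a factor attached to the synthase, was at 0.03 ± 0.12.

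Subunit c forms the rotor ring in the membrane. Atp5g1, Atp5g2 and Atp5g3 encode the same mature protein behind different import sequences, and Atp5g1 is known as the regulated copy whose low level limits ATP synthase in mouse brown fat. Atp5g1 (ENSMUSG00000006057, chromosome 11, 96068852 to 96075670) was at 27.6, 63.6, 47.0 and 36.5 CPM in the controls and 88.7, 104, 95.3 and 56.0 CPM in the libraries labelled knockout. Libraries 1 to 3 of the latter lay above every control, whereas library 4 fell within the control range, below control 2. The log2 fold change was 0.97 ± 0.25, with an adjusted p of 0.128 in edgeR and 0.00696 in DESeq2.

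Atp5g3 (ENSMUSG00000018770, chromosome 2, 73908447 to 73911326) was at 313, 348, 383 and 326 CPM in the controls and 484, 442, 467 and 410 CPM in the libraries labelled knockout. These groups did not overlap, and the log2 fold change was 0.40 ± 0.10 with an adjusted p of 0.124 in edgeR and 0.00673 in DESeq2. Atp5g2 (ENSMUSG00000062683, chromosome 15, 102662864 to 102672352) was at 147, 142, 144 and 142 CPM in the controls and 158, 163, 163 and 175 CPM in the libraries labelled knockout. These groups did not overlap either, but the difference was small, at 0.20 ± 0.08 with an adjusted p of 0.263 in edgeR and 0.211 in DESeq2. A microRNA gene, Mir688, overlaps an Atp5g2 exon on the same strand, so that count is uncertain.

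Added together, the 3 genes gave 530 ± 40.2 CPM (SD, n = 4) in the control and 702 ± 41.5 CPM (SD, n = 4) in the libraries labelled knockout, ranges that did not overlap. The sum equalled 9.04 ± 0.849% of the Atp5b CPM in the control and 13.0 ± 1.31% in the other group. These CPM are not scaled by length, so the percentages are not ratios of transcript numbers. The principal transcripts have 596, 441 and 714 bases for Atp5g1, Atp5g2 and Atp5g3, and 1916 for Atp5b. Atp5g3 gave 64.6 ± 1.60% of the summed CPM in the control and 64.2 ± 1.64% in the libraries labelled knockout, while the share of Atp5g1 was 8.15 ± 2.46% and 12.2 ± 2.51%.

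**Figure D3:**
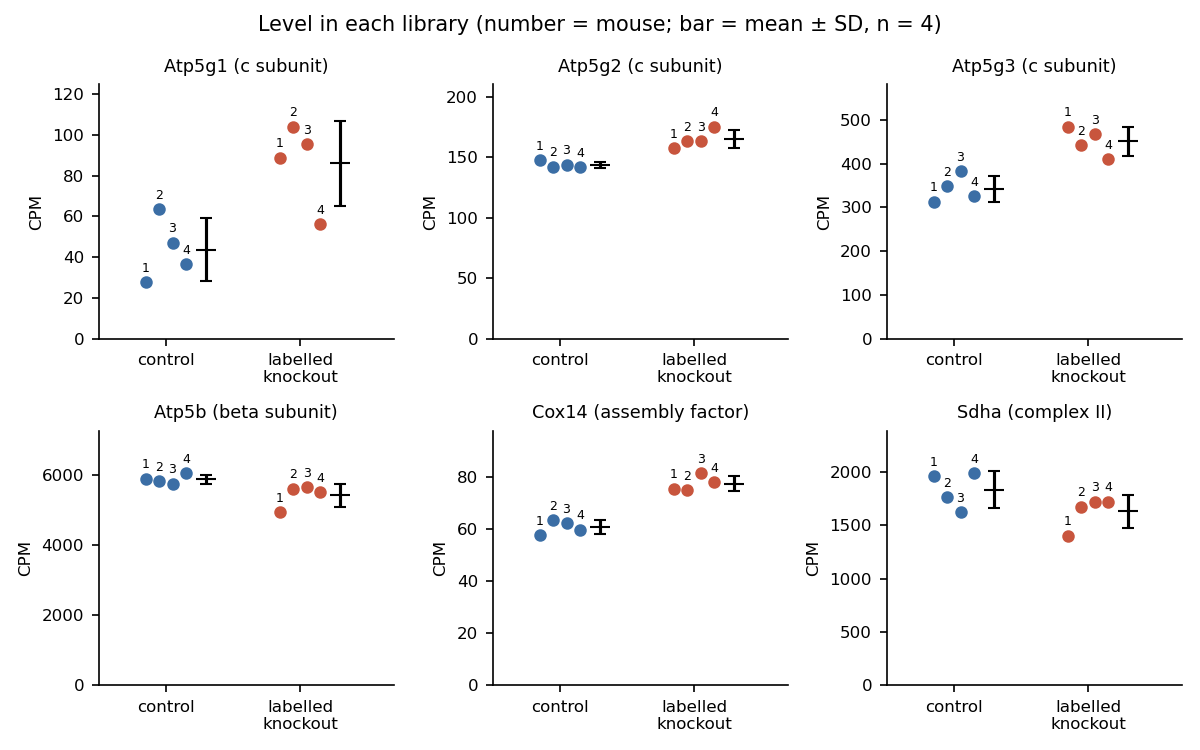
CPM in each library (vertical axes start at 0) for the 3 subunit c genes, Atp5b, Cox14 and Sdha. Numbers name the mouse and bars show mean ± SD (n = 4). Cox14, Atp5g2 and Atp5g3 are higher in every library labelled knockout, Atp5g1 overlaps through library 4 at 56.0 CPM, and Sdha overlaps.

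At the ends of each group's range, levels of Atp5g1 went with those of skeletal muscle genes, but not in every library. Muscle borders this fat depot, and a score averaging log2 CPM over 20 muscle genes was 8.49 ± 0.576 (SD, n = 4) in the control and 9.20 ± 0.450 (SD, n = 4) in the libraries labelled knockout. Control 1 had both the lowest score, 7.73, and the lowest Atp5g1, and control 2 had both the highest score of the controls, 9.12, and their highest Atp5g1. Library 4 of the other group, with the lowest Atp5g1 there, had a score of 8.53 against 9.39 to 9.48 in its group. Control 4 went the other way, with a score of 8.63 and Atp5g1 at 36.5 CPM, below control 3 (8.47 and 47.0 CPM) and below library 4 labelled knockout (56.0 CPM). Cox6a2, the cytochrome oxidase isoform of muscle and brown fat, followed the same order at these ends, from 36.6 CPM in control 1 to 178 CPM in library 2 labelled knockout. With this score added to the model, the log2 fold change of Atp5g1 was 0.40 in place of 0.97, with an adjusted edgeR p of 0.406. Those of Atp5g3 and Atp5g2 were then 0.30 and 0.25. Myl1, itself a fast muscle gene but outside the 20, had a log2 fold change of -0.05 ± 0.20, and -0.47 with the score added. All 20 muscle genes were measured and above 0 (median 0.69), with 0 called by edgeR. At an unadjusted edgeR p under 0.05, 12 were higher (against 8.05% of all genes), and DESeq2 called 2 higher (against 1.39%). Their summed level ran from 5935 to 16299 CPM in the control and from 11457 to 21478 CPM in the libraries labelled knockout. Muscle taken along at dissection and muscle genes active within the fat cannot be told apart by this score, and beyond the covariate the part of muscle in the result was not tested.

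The promoters of the subunit c genes and of Cox14 are shown because Atp5g1 had the largest difference in the set and Cox14 the lowest p. Windows from RefSeq (GRCm38.p6, 250 bases before to 50 after the start) were found for 45 of the 55 protein-coding genes and searched on both strands for NRF1 (GCGCA, any base, GCGC), ERR (TCAAGGTCA), GABP (CCGGAAGT), YY1 (AAGATGGCG) and a PPAR element (AGGTCA and AGGTCA with any base between). ERR letters share AGGTCA with the PPAR element. The 250 bases before the start are printed, with matches in capitals. The windows are chr11:96075632-96075881 (minus strand) for Atp5g1, chr15:102671048-102671297 (minus) for Atp5g2, chr2:73911327-73911576 (minus) for Atp5g3 and chr15:99725368-99725617 (plus) for Cox14.
Atp5g1: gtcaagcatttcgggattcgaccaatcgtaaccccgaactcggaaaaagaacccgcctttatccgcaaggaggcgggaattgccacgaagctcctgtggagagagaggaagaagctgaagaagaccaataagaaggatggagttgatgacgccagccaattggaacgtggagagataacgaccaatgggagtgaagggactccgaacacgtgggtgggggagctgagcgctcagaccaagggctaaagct
Atp5g2: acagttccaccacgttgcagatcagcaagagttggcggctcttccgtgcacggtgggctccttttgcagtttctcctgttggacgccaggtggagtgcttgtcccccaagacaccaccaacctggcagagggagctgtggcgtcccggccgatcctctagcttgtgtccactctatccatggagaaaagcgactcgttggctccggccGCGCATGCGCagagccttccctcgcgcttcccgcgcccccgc
Atp5g3: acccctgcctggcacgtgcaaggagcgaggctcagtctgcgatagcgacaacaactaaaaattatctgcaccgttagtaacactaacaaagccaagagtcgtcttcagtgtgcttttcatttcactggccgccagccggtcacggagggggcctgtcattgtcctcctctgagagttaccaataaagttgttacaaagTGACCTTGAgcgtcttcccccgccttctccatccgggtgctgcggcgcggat
Cox14: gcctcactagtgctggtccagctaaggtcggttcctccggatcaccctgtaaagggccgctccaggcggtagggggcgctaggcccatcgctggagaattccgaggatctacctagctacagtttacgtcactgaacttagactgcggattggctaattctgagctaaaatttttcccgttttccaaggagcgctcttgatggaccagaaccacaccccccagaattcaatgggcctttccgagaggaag
The 3 genes for subunit c do not share a match in these windows. Atp5g2 held an NRF1 match 42 to 33 bases before the start, and Atp5g3 an ERR match on the opposite strand 52 to 44 bases before it. Past the printed stretch Atp5g3 had an NRF1 match at bases 13 to 22 after the start, and Cox14 had a GABP match at bases 35 to 42. The Atp5g1 window held none of the 5 motifs. Over the set, NRF1 letters were in 11 of 45 windows (24.4%, against 4.77% of 26994 promoters and 10.4% of those of tested genes), GABP letters in 6 (13.3%, against 4.00% and 8.27%), ERR letters in Atp5g3 and Sdhd (4.44%, against 0.407% and 0.306%), YY1 letters in Atp5j2 and Cox10 (4.44%, against 1.49% and 3.23%) and the PPAR element in 0 (against 0.0445% and 0.0395%). A match is a description of letters, not of binding.

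Each library's mean over the subunits of a complex shows how the complexes varied together. For the 16 complex V subunits, the mean log2 CPM lay 0.21, 0.14, 0.21 and 0.22 above the control mean in libraries 1 to 4 labelled knockout, while the controls lay at -0.02, -0.01, 0.08 and -0.06, so the groups did not overlap. For the 7 complex IV subunits the values were 0.16, 0.01, 0.16 and 0.29 against 0.05, -0.16, 0.13 and -0.03, with overlap. Complex III subunits differed by 0.05 between the group means and complex II subunits by -0.06, with the lowest value, -0.20, in library 1 labelled knockout. The 18 assembly factors differed by -0.02. No complex other than V stood apart by group on this measure, and for complex V this rests on Atp5g1. The closest libraries were control 3 and library 2 labelled knockout, with Atp5g1 at 47.0 and 104 CPM. Over the other complex V subunits, library 2 labelled knockout did not lie above control 3.

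**Figure D4:**
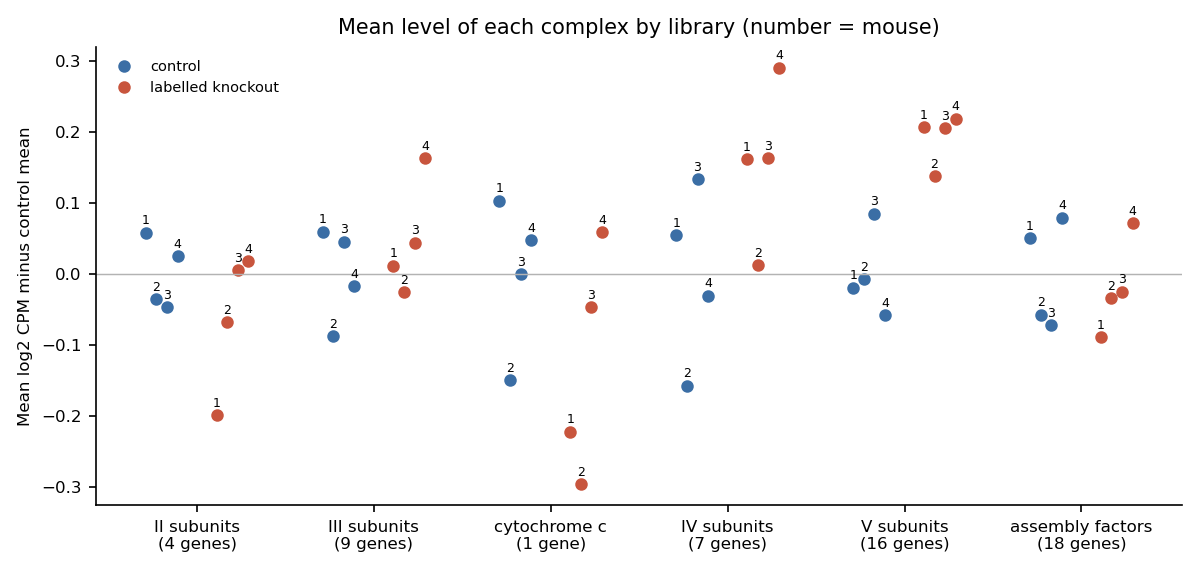
Mean log2 CPM of the genes of each complex in each library, minus the control mean (vertical axis). Blue points are control and red points labelled knockout mice, numbered. Complex V subunits separate the groups, with 0.14 to 0.22 in the libraries labelled knockout, but only with Atp5g1 among them. The other sets overlap.

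Within the set, short transcripts lay higher than long ones, and other genes of the same length did so too. The 23 protein-coding members with a principal transcript of up to 750 bases had a median log2 fold change of 0.17, and 21 of them were above 0. The 94 other genes of that length with at least 100 CPM in the control had a median of 0.20, with 84.0% above 0. Only the members were removed from the other genes. Complex I subunits and left-out cytochrome oxidase isoforms are thus among them where they reach 100 CPM, such as Ndufa9 (483 CPM in the control) and Cox4i1 (1601 CPM). How many are among the 94 short ones was not counted. The other genes are therefore not a background free of the pathway. The 6 members of 2500 to 4000 bases had a median of -0.11, and the 356 other genes of that length -0.12. Across the 55 members, with no floor on their level, Spearman's rho between length and log2 fold change was -0.65. It was -0.32 across the 1411 other genes with at least 100 CPM, and -0.14 across all 12322 other protein-coding genes tested. Without that floor, the other genes had a median of 0.17 up to 750 bases and of -0.02 from 2500 to 4000 bases. These are descriptions over genes, which share libraries and are not independent replicates.

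By library, the 94 short other genes had a median log2 CPM of 0.28, 0.09, 0.14 and 0.28 above the control mean in libraries 1 to 4 labelled knockout, and 0.03, -0.05, 0.10 and -0.06 in the controls. Library 2 of the first group thus lay below control 3. In the model with the muscle score the short members had a median of 0.29 and the short other genes of 0.26. Atp5g1, at 0.97, and Atp5g3, at 0.40, are short members that lay well above the median of the short other genes. The part of transcript length in the values of the short members was not tested.

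**Figure D5:**
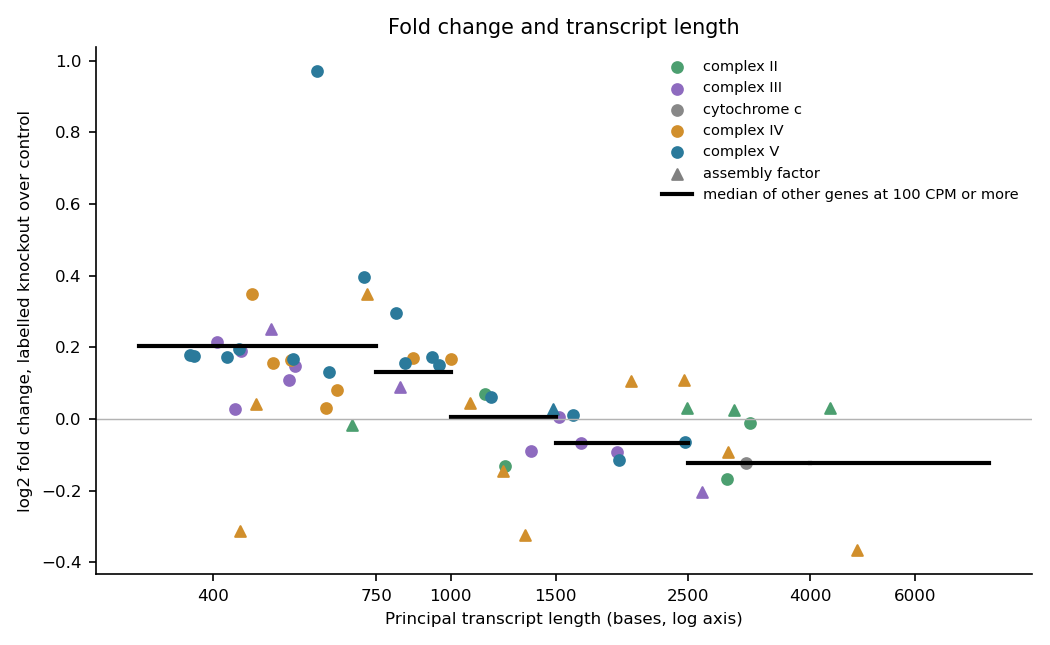
Log2 fold change of each protein-coding gene of the set (vertical axis) by the length of its principal transcript in bases (log axis). Points are coloured by complex, triangles are assembly factors, and black lines are medians of other genes with at least 100 CPM in each length class. Points of short subunits lie around the line at 0.20, with Atp5g1 at 0.97 far above it.

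Other genes of the pathway had no edgeR calls either, and DESeq2 called only Slc25a4 among them. Of 38 genes with Nduf symbols, named for complex I and including Ndufa4, 0 passed in either direction in edgeR or DESeq2. Above 0 lay 31 of them, and the median was 0.12. At an unadjusted edgeR p under 0.05, 4 were higher, where 8.05% of all genes were higher and 7.12% lower. The 8 cytochrome oxidase isoform genes left out of the set had a median of 0.16, and the 6 mitochondrially encoded subunits of complexes III to V had 3 above and 3 below 0. In both lists 0 passed in edgeR and DESeq2, and 1 was higher at an unadjusted edgeR p under 0.05. Of 25 assembly factors outside the symbol rule 0 passed in either tool, 1 was higher and 1 lower at an unadjusted edgeR p under 0.05, and the median was 0.00. Among the 3 phosphate and adenine nucleotide carriers DESeq2 called Slc25a4, the muscle type ADP/ATP carrier, higher (against 1.39% of the genes it tested). edgeR called none of the 3, with an adjusted p of 0.148 for Slc25a4. Of 15 transcriptional regulators 0 passed in either tool and 1 was lower at an unadjusted edgeR p under 0.05, with a median of -0.07. Among them Ppargc1a, the coactivator of mitochondrial genes, was at 99.1 ± 41.2 CPM (SD, n = 4) in the control and 69.7 ± 15.6 CPM (SD, n = 4) in the other group, with overlap.

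The tissue carried its defining markers. Ucp1 stood at 11441 ± 1272 CPM (SD, n = 4) in the control and 9303 ± 1473 CPM (SD, n = 4) in the other group. The brown adipocyte list includes Adipoq, Fabp4 and Plin1, which are not particular to brown fat. All 10 genes of this list were measured, with log2 fold changes below 0 and a median of -0.42. Their summed level was 21410 to 27980 CPM in the libraries labelled knockout and 26743 to 32938.5 CPM in the control. edgeR called 0 of these 10, and 4 were lower at an unadjusted p under 0.05 (against 7.12% of all genes). DESeq2 called Plin1 and Elovl3, both lower, where it called 153 of the 15087 genes it tested lower. The 8 macrophage genes were all above 0 (median 0.39), summing to 98.2 to 177 CPM against 98.7 to 141 CPM. The 5 endothelial genes had a median of -0.01 and the 5 fibroblast genes of 0.16. In these lists edgeR called 0, and DESeq2 called Cd68 and Lum, both higher (against 1.39% of all genes it tested). At an unadjusted edgeR p under 0.05, 2 macrophage, 0 endothelial and 2 fibroblast genes were higher (against 8.05% of all genes). The 5 lymphocyte genes together reached at most 3.95 CPM in any library, none of them at 0 in all 8, and none passed the filter. The part of these cells in the values of the respiratory genes was not tested, apart from the muscle score used as a covariate.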

How the data were processed

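The tools listed are HISAT2, featureCounts (Subread), SAMtools, Trimmomatic and FastQC, with the build GRCm38, per the submitters' processing notes. Settings, strand mode and annotation of the counting were not given in the sources used here. Raw whole-number counts per gene fill the authors' deposited table, and each column's genotype and mouse number gave its sample. The labels name separate mice. Every pair of libraries differed by more than sampling noise, with chi-square values of 10.4 to 79.0 per degree of freedom.

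Genes were filtered with filterByExpr, scaled by TMM and tested with edgeR 4.0.16 on an intercept and the genotype (R 4.3.3), with Benjamini-Hochberg adjustment over all 13756 genes. DESeq2 1.42.0 and limma-voom (limma 3.58.1) were alternatives. SEs were derived as |log2 fold change| over the root of the F statistic. The skeletal muscle score averages log2 CPM (prior count 2) over 20 genes. Positions, exon overlaps and principal transcript lengths (best APPRIS rank, then support level, then the shortest) come from GENCODE mouse release M21, with 99.9% of IDs matched. Of 55 protein-coding members, 17 have exons overlapping a gene on the opposite strand and 4 on the same strand, so their counts are uncertain.

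The members and gene lists were chosen with earlier results of these data known. The rule's note on pseudogenes was read as every symbol with the suffix -ps, which left out 7 rows, 3 of them with at least 80 counts. Values in every library are given for members called by edgeR or DESeq2, for the most abundant per kilobase and the highest and lowest fold change in each complex, and for the subunit c genes. A library was set apart within its group where Dixon's ratio exceeded 0.829.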

Additional observations from a re-analysis of the deposited data

Results flagged for a closer look

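Among 114 groups of 4 libraries (57 genes in each genotype), 5 held a library far from the others by Dixon's ratio, about as many as chance gives at 1 in 20. In the libraries labelled knockout, Sdha was low in library 1, at 1405 CPM against 1678 to 1725 CPM in the others, and Cox5a was low in library 2, at 930 CPM against 977 to 986 CPM. In the controls, library 2 was low for Uqcc3, at 58.0 CPM against 69.2 to 70.6 CPM, and for Cox18, at 12.5 CPM against 15.2 to 15.4 CPM, and library 3 was low for Atp5a1, at 3063 CPM against 3244 to 3257 CPM.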

How the results depend on the processing

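The median log2 fold change of the 57 genes, 0.08, was above 0 under all 15 alternatives and lay between 0.05 and 0.10 when each library was left out, but was 0.16 in the model with the muscle score, where complex III moved from 0.06 to 0.18 and complex V from 0.17 to 0.25, and the cause was not tested. Of the 57, the number called was 0 with each library left out, 4 in DESeq2, and 1 (Atp5g1) both without a filter on low counts (adjusted edgeR p of 0.017) and with the mouse number as a replicate block (0.0232). Over all genes the count was 53, and it was 362 in DESeq2, 187 without the filter, 155 with the replicate block, 26 with the muscle score and 24 to 75 with a library left out. Deviations of same-numbered mice had correlations of 0.02, 0.40, 0.03 and 0.17, and those of differently numbered mice ran from -0.37 to 0.32. The labels do not state a pairing, and these values cannot decide it. The block changed no other member's call. Log2 fold changes turned sign in 27 of 855 member values, for 12 genes, the largest of them Cox20b at 0.25. With the muscle score Sdhaf4 was 0.079, Sdhc 0.054, Cycs 0.025 and Atp5s -0.024, and with upper-quartile scaling the log2 fold change of Sdhc was 0.000643. With each library left out, the ranges were -0.011 to 0.030 for Atp5f1, -0.043 to 0.072 for Atp5s, -0.014 to 0.10 for Cox20, -0.012 to 0.44 for Cox20b, -0.020 to 0.067 for Cox6b1, -0.029 to 0.028 for Cyc1, -0.032 to 0.072 for Sdhaf2, -0.029 to 0.10 for Sdhaf3, -0.082 to 0.055 for Sdhaf4, -0.040 to 0.048 for Sdhc, -0.029 to 0.066 for Uqcr10 and -0.22 to 0.12 for the Cre driver gene Myl1. Depth limits Cox20b and Cox6b2, at under 4 CPM.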
